A study of Mus musculus with 6 samples.

Results

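The nuclear receptors for retinoic acid are encoded by 6 genes in the mouse: the retinoic acid receptors Rara, Rarb and Rarg, and the retinoid X receptors Rxra, Rxrb and Rxrg. Every probe set of the array whose single annotated gene is one of these was taken, which gave 8 of the 22626 probe sets tested, with Rarg and Rxra each represented by 2 and the others by 1. The probe sets were measured in tissue of mouse embryos at stage E10.5 (embryonic days), chiefly rhombomere 4 of the hindbrain together with neighbouring branchial arch. The 3 wild-type and the 3 Hoxb1 mutant samples were each a pool of segments from multiple embryos, and the pools are described as independent biological replicates. The sources used here give neither the Hoxb1 allele nor its zygosity nor the strain, and neither group is labelled with any treatment. The question put by the design is which transcripts of this segment differ when Hoxb1 is mutant.

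Retinoic acid is a small lipophilic signal made from vitamin A. Inside the nucleus a retinoic acid receptor and a retinoid X receptor bind DNA together, typically at a direct repeat of a short hexamer. Without ligand the dimer recruits corepressors, and ligand exchanges them for coactivators. In the embryonic hindbrain this signal sets where Hox genes are switched on, and Hoxb1 itself is a known direct target through elements that lie outside its coding sequence.

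The receptor genes can themselves be targets, so the sequence next to their annotated starts was searched for the classical element. Windows from 250 bases before to 50 bases after annotated transcript starts were taken from RefSeq (mouse build GRCm38.p6). They were searched on both strands for 2 hexamers in direct repeat separated by 5 bases, a spacing called DR5. Each hexamer was AGGTCA in its consensus form or the variant AGTTCA, with GGTTCA also accepted, as was GGGTCA as a further form. All 6 receptor genes had windows, 13 in total, and 1 of them, that of Rarb, held a DR5. Among 32851 windows of that length in the whole table, 0.0974% held one. Repeats with spacings of 1 and of 2 bases were found in 0 of the 13 windows, against 0.222% and 0.268% of all windows. Among 62 further genes with windows, from the pathway lists described later, Bco1 held a repeat with spacing 1, and Cyp26a1, which encodes the main enzyme of retinoic acid breakdown, held a DR5. The 120 bases before the start of these genes are shown because the pair carries the element through which retinoic acid is known to act on them. They are written 5′ to 3′ on the strand of the gene, with both hexamers in capitals. The Rarb sequence is chr14:16575477-16575596, minus strand, and the Cyp26a1 sequence is chr19:37697688-37697807, plus strand.
Rarb: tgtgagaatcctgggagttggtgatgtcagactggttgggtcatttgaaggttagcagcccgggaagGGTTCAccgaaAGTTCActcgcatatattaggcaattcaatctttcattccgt
Cyp26a1: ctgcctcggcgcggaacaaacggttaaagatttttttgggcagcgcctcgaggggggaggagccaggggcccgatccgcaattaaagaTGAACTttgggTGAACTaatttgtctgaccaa
In Rarb the repeat reads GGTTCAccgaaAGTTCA and lies from base -53 to base -37 relative to the start. In Cyp26a1 it lies from base -32 to base -16 and reads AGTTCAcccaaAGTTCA on the opposite strand. These are matches of letters, given as a description. Elements outside the windows, at starts without a window or in other hexamer forms would be missed. A receptor gene without a match may therefore still carry an element.

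Each sample was hybridised to 1 Affymetrix 430A array, and values are linear intensities with array medians of 187 to 214. Control probe sets for bacterial transcripts absent from the samples had a 95th percentile of 61.5, used here as the limit of background. Hoxb1, the mutated gene, gave 341, 378 and 588 on the wild-type arrays and 60.8, 35.3 and 50.03 on the mutant arrays, which do not overlap. The separation goes with the group labels. The sources used here do not say whether the probe set (1453501_at) lies in the altered part of the gene. What the lower signal reflects was not tested. The control probe sets for 18S ribosomal RNA stood apart on wild-type replicates 2 and 3, at 12.1 and 11.3 in mean log2 signal, whereas the remaining 4 arrays lay between 6.36 and 7.03. Because those arrays are both wild type, receptor differences are also given without them and with the 18S signal as a covariate. Both settings rest mainly on wild-type replicate 1 against the mutant arrays, so they are not separate checks. Marker lists were measured as sums of intensity, and none of their members was listed at 0. Neural progenitor markers summed to 23429 to 26021 in wild type and 21616 to 22386 in mutants, with 11 of 12 above background on every array, and markers of crest and mesenchyme to 15841 to 17635 and 14779 to 15618, with 14 of 14. The sums of neuronal, epithelial, endothelial, erythroid and macrophage markers overlapped between the groups. The part of these shifts in the receptor values was not tested. In dissected tissue, fewer cells of a type and less RNA per cell cannot be told apart.

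Of the 8 receptor probe sets, 0 passed the test in limma after Benjamini-Hochberg adjustment over all probe sets, where 0% of the 22626 passed as well. An unadjusted p under 0.05 was reached by 1 of 8, an Rxra probe set that was lower in mutants, against 5.76% of all probe sets in either direction and 3.88% lower. Which probe set this was depended on the setting. It was the other Rxra probe set, higher in mutants, with quantile normalization, with array medians centred and without wild-type replicate 3. It was Rara without wild-type replicate 1 and Rarg probe set 1419415_a_at without mutant replicate 1, both lower in mutants. The groups did not overlap in 2 of 8, both of Rxra, against 12% of all. Of these, 1 was higher and 1 lower in mutants, against 4.88% and 7.08%. Mean log2 intensity was lower in mutants in 7 of 8, against 54.2% of all. These 7 include Rxrg, which was under background, and both probe sets of Rarg. With the 18S covariate, and without the 2 arrays of high 18S signal, 5 of 8 were lower. Counts of 1, 2 or 7 among 8 probe sets are too small to read against those shares. Differences are the mutant mean minus the wild-type mean of log2(intensity + 16), with standard errors (SE) and 95% intervals from limma.

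**Figure D1:**
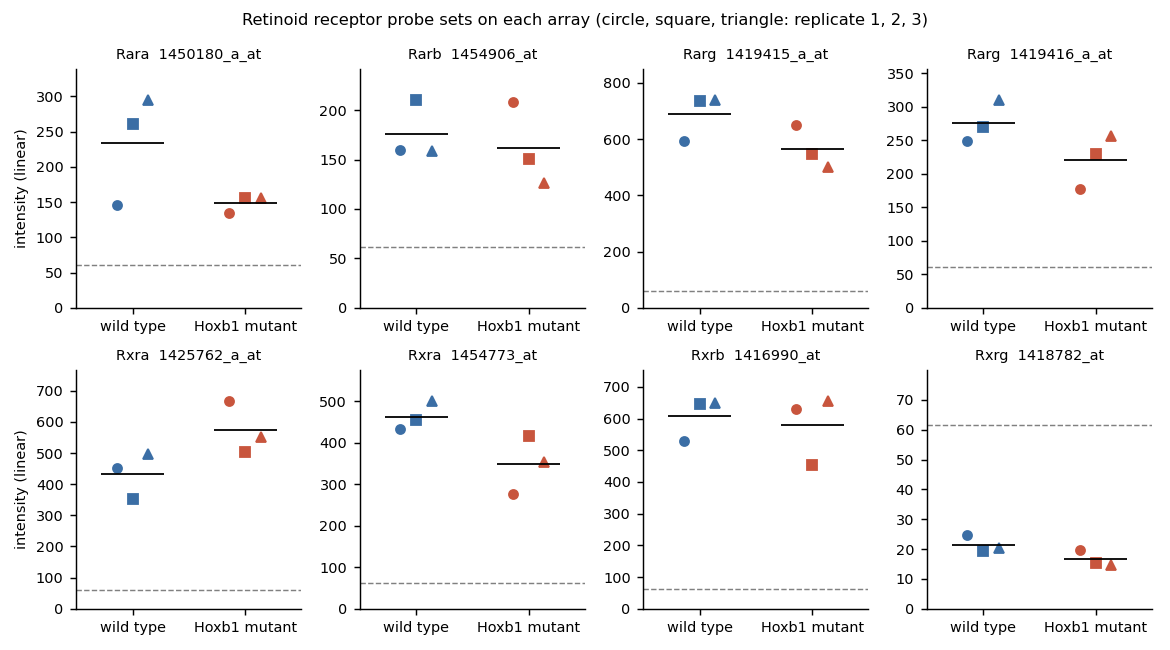
Linear intensity (vertical axes, from 0) of each receptor probe set on the 6 arrays; blue is wild type, red is Hoxb1 mutant, horizontal bars are group means (n = 3) and the dashed line is the bacterial 95th percentile of 61.5. Rxrg lies under that line on every array, and the groups are separate in the 2 Rxra panels, in opposite directions.

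Rara, the receptor known for broad expression in embryonic tissue, had the lowest estimate of the family, and it rested on 2 wild-type arrays. Its probe set 1450180_a_at read 147, 261 and 294 on the wild-type arrays and 134, 156 and 156 on the mutant arrays. Wild-type replicate 1 thus lay within the range of the mutants, while the other wild-type arrays stood well above all mutant ones. The means were 234 ± 77.5 and 149 ± 12.7 (SD, n = 3), a difference of -0.55 (SE 0.25, interval -1.14 to 0.04; limma adjusted p = 0.833). The pair of high arrays is the pair with high 18S signal. Without them the difference was 0.02 (SE 0.19), where the single wild-type array left is assumed to vary like the mutants. With the 18S signal as a covariate it was -0.06 (SE 0.21). Without wild-type replicate 1 it was -0.83 (SE 0.15; limma adjusted p = 0.537). Over all 16 alternative settings the adjusted p ran from 0.537 to 1.00. Within groups Rara also varied more than probe sets of like brightness, with an SD of 0.36 on the log2 scale against their median of 0.22.

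**Figure D2:**
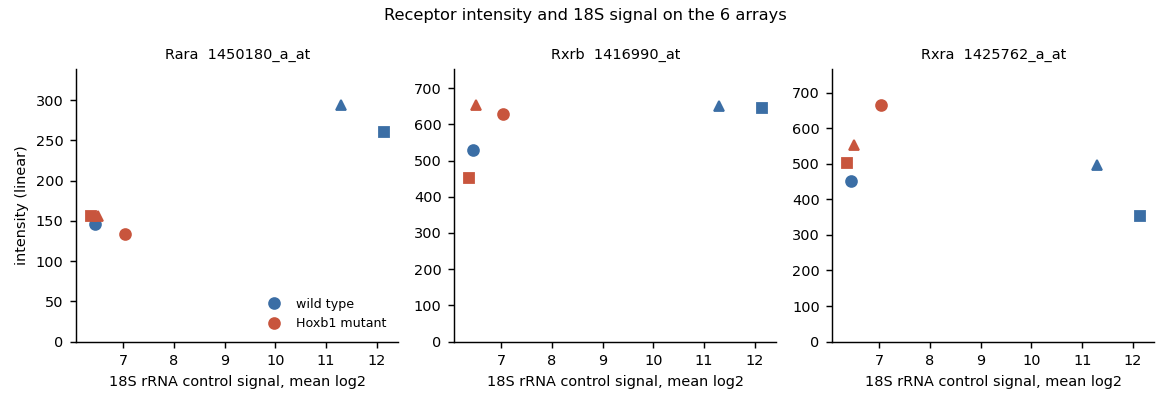
Linear intensity (vertical axes) of Rara, Rxrb and an Rxra probe set against the mean log2 signal of the 18S control probe sets (horizontal axes) on the 6 arrays; blue is wild type, red is Hoxb1 mutant, and circle, square and triangle are replicates 1, 2 and 3. The 2 wild-type arrays at 11.3 and 12.1 hold the 2 highest Rara values, and wild-type replicate 1 lies among the mutants for Rara.

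Rarb, the receptor whose promoter carries the DR5 shown above and which is widely used as a readout of retinoic acid, had wild-type intensities of 159.6, 209.8 and 158 and mutant intensities of 208, 151 and 126 with probe set 1454906_at. The highest mutant and the highest wild-type array were nearly equal, and the groups overlapped. The difference was -0.13 (SE 0.20, interval -0.61 to 0.36; limma adjusted p = 0.935). That interval includes both no change and a lower level of up to 0.61 on the log2 scale. The sign was not stable: without mutant replicate 3 the difference was 0.02, and with the 18S covariate 0.04. Cyp26a1, which shares the element, had 498, 579 and 663 on wild-type arrays against 543, 548 and 439 on mutant arrays, also with overlapping groups (difference -0.18, SE 0.15; limma adjusted p = 0.877).

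Rarg, known in the embryo for expression in mesenchyme and cartilage precursors, had lower means in mutants with both of its probe sets. Probe set 1419415_a_at read 592, 734 and 737 on the wild-type arrays and 648, 546 and 501 on the mutant arrays. Probe set 1419416_a_at read 249, 269.6 and 309.7 on the former and 177, 229 and 256 on the latter. In each of them 1 mutant array reached above the lowest wild-type array, replicate 1 in the former and replicate 3 in the latter. The differences were -0.28 (SE 0.15, interval -0.64 to 0.08) and -0.31 (SE 0.17, interval -0.71 to 0.08), each with a limma adjusted p of 0.833. Averaged over both probe sets the difference was -0.29 (SE 0.12, interval -0.57 to -0.02; limma adjusted p = 0.787 over 12393 genes). Without the 2 arrays of high 18S signal the estimates were -0.07 and -0.18, and with the covariate -0.07 and -0.23. Both kept a negative sign in all 16 settings, and the part of the 18S signal in them was not tested further.

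Rxra, the retinoid X receptor regarded as the main partner of the retinoic acid receptors in the embryo, gave opposite results with its 2 probe sets. Probe set 1425762_a_at read 452, 352 and 497 on the wild-type arrays and 666, 503 and 553 on the mutant arrays, so every mutant array lay above every wild-type array. Probe set 1454773_at read 433, 455 and 499 on the wild-type arrays and 276, 417 and 353 on the mutant arrays, so every mutant array lay below. The differences were 0.40 (SE 0.17, interval -0.02 to 0.81) and -0.41 (SE 0.17, interval -0.81 to -0.01), both with a limma adjusted p of 0.833. Averaged over the probe sets, Rxra had a difference of -0.01 (SE 0.12, interval -0.28 to 0.27), a value that neither probe set shows by itself. Both probe sets are annotated to Rxra alone; the sources used here do not say where in the gene their probes lie.

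The disagreement was measured as the gap between the probe sets within each array, the log2 value of 1425762_a_at minus that of 1454773_at. Since probes differ in how brightly they report, only the change of the gap between arrays is read. The gap was 0.06, -0.36 and -0.01 on wild-type arrays against 1.23, 0.26 and 0.63 on mutant arrays, without overlap. Its change from wild type to mutant was 0.81 on the log2 scale, with p = 0.1 in a 2-sided exact permutation test over arrays, the smallest that 3 against 3 allows, and 0.2 after adjustment over the 2 receptor genes tested. The same gap of the Rarg probe sets changed by 0.03, with p = 1 in that exact test and overlapping groups. Across the array, 7863 pairs of probe sets of 3377 genes were above background on all 6 arrays. The groups did not overlap in the gap of 10.3% of these pairs, and 99.7% had a smaller change of the gap than Rxra. In 37 pairs, or 0.471%, each probe set had groups that did not overlap, in opposite directions. This gap was examined after the values had been seen. Each Rxra probe set already separated the groups, in opposite directions. The gap therefore could not overlap, and its exact p could only be the smallest possible. The permutation test and the separation of the gap add no support beyond those values.

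**Figure D3:**
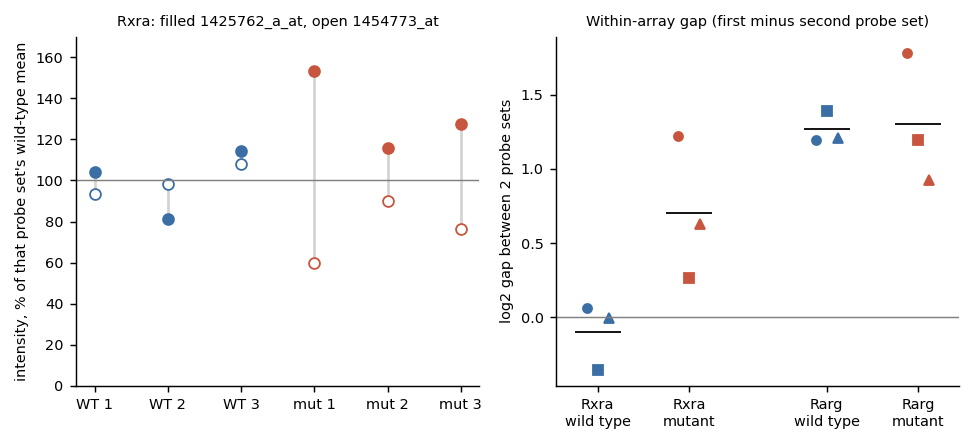
Left, intensity of both Rxra probe sets on each array as a percentage of that probe set's own wild-type mean; right, the within-array log2 gap between the 2 probe sets of Rxra and of Rarg, with bars at group means (n = 3) and circle, square and triangle for replicates 1, 2 and 3. On each mutant array the filled Rxra points lie above 100 and the open points below it, and the gap changes by 0.81 for Rxra and 0.03 for Rarg.

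The Rxra values did not turn with the settings tried. Over 16 alternatives 1425762_a_at ran from 0.26 to 0.50 and 1454773_at from -0.54 to -0.26, and adjusted p was 0.566 or above. Without the arrays of high 18S signal they were 0.32 and -0.32. Mutant replicate 1, which held the highest value of the former and the lowest of the latter, contributed most to the gap: without it the change was 0.54.

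Rxrb, known for near-ubiquitous expression, had wild-type intensities of 530.3, 646 and 649.6 and mutant intensities of 629.8, 453 and 654 with probe set 1416990_at. The highest value belonged to a mutant array and so did the lowest. The difference was -0.08 (SE 0.18, interval -0.50 to 0.34; limma adjusted p = 0.954), and its sign turned without mutant replicate 2 (0.08) and without the arrays of high 18S signal (0.10). Within groups its SD on the log2 scale was 0.23, against a median of 0.16 for probe sets of like brightness.

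Rxrg, a receptor with restricted expression in muscle and parts of the nervous system, was not above background. Its probe set 1418782_at read 24.6, 19.4 and 20.4 on the wild-type arrays and 19.6, 15.3 and 14.6 on the mutant arrays, with 0 of 6 arrays above the bacterial 95th percentile. Any difference at that level cannot be told from background, and no fold is given. The other 7 receptor probe sets were above it on all 6 arrays.

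**Figure D4:**
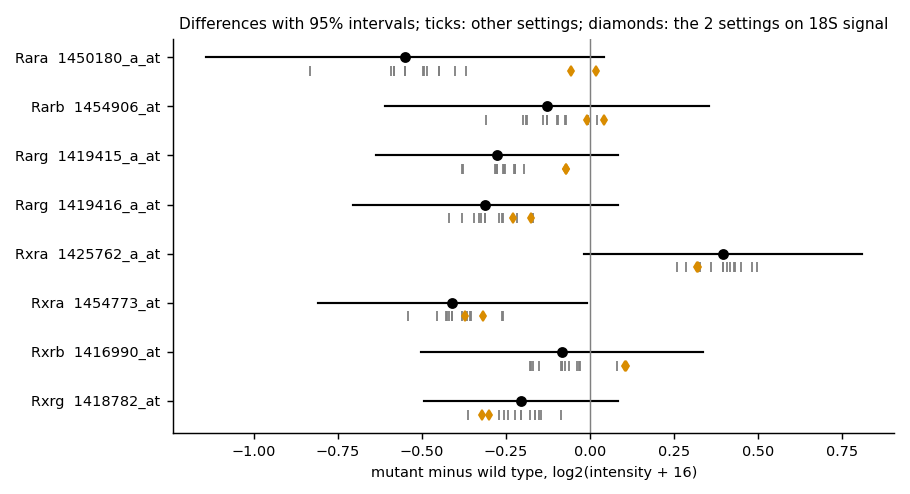
Difference in log2(intensity + 16), mutant minus wild type (horizontal axis) for each receptor probe set; black points and lines are estimates with 95% intervals from limma, grey ticks are the estimates under the alternative settings, and orange diamonds those without the arrays of high 18S signal and with 18S as a covariate. The Rara diamonds lie at 0.02 and -0.06, away from its estimate of -0.55, while the Rxra diamonds stay on the side of their estimates.

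The other genes of the pathway were counted in 5 lists, with the probe set of highest mean for each gene. The same over all 12393 genes gave 54.5% with a lower mean in mutants, a median difference of -0.02, 0% past the limma threshold and 5.45% with an unadjusted p under 0.05, 1.7% higher and 3.75% lower. Each of the 5 lists likewise had 0 members past the adjusted threshold.

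Genes that make, carry or break down retinoids were 15 in number, of which 11 were above background on all arrays. A lower mean in mutants was seen in 13 and a higher mean in 2 (median -0.19). The 13 include Aldh1a1, Aldh1a2, Aldh1a3 and Lrat, which were not above background on all arrays. An unadjusted p under 0.05 was reached by 1 gene. That count became 0 without wild-type replicate 2, wild-type replicate 3 or mutant replicate 2, and with the replicate block. The median was -0.10 without mutant replicate 3 and -0.12 without the dimmest 33.3% of probe sets. The gene was Fabp5, a fatty acid binding protein that also carries retinoic acid, with a wild-type mean of 6057 ± 423 and a mutant mean of 7651 ± 505 (0.34, SE 0.12; limma adjusted p = 0.833), with every mutant array above every wild-type array. A second Fabp5 probe set gave 4312 ± 332 and 5425 ± 789 (0.32, SE 0.15). Bco1, which cleaves carotene into retinal, gave 96.4 ± 6.53 and 79.1 ± 9.24. Aldh1a1, a retinal dehydrogenase, had means of 24.0 and 13.4, under the background limit.

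Coregulators of nuclear receptors were above background on all arrays in 14 of 15 measured genes. They were lower in 11 and higher in 4 (median -0.18), with 1 at an unadjusted p under 0.05. That count was 0 with the 18S covariate, without the arrays of high 18S signal and without mutant replicate 2, and the median was -0.073 without mutant replicate 3. Zfp423, a zinc-finger factor known to associate with retinoic acid receptors and to act in hindbrain and cerebellar development, read 444, 613 and 837 on the wild-type arrays and 315, 302 and 431 on the mutant arrays. Its groups did not overlap, and the difference was -0.80 (SE 0.25, interval -1.40 to -0.19; limma adjusted p = 0.833). Its highest values were on the 2 wild-type arrays of high 18S signal. The acetyltransferase gene Kat2b gave 272 ± 13.1 and 219 ± 29.1, and Tbl1x, a subunit of the corepressor complex, 1648 ± 56.5 and 1452 ± 100.2. Other probe sets of Tbl1x differed by 0.15 (SE 0.15) and -0.24 (SE 0.14). A second Kat2b probe set was under background on all arrays, with means of 9.68 and 8.12.

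Nuclear receptors that pair with retinoid X receptors, among them those for thyroid hormone, vitamin D and fatty acids, were above background on all arrays in 3 of 12 measured genes. These were Thra, the thyroid hormone receptor alpha, named after its values were seen (485 ± 38.2 and 514 ± 52.1), and the early-response orphan receptors Nr4a1 (193 ± 48.6 and 231 ± 48.7) and Nr4a2 (150.2 ± 19.4 and 134 ± 29.1), all with overlapping groups. The median difference of the list was -0.06, and 0 had an unadjusted p under 0.05. The genes of smallest p were Nr1i3, below background, and both of these Nr4a genes. A second Nr4a2 probe set gave 58.9 ± 26.8 and 56.6 ± 26.5, above background on 2 wild-type arrays and 1 mutant array. Other orphan receptors that recognise similar hexamers were above background in 10 of 12 genes, with a median of -0.09 and 0 at an unadjusted p under 0.05. Rorb gave 90.2 ± 26.6 and 48.9 ± 28.5 with overlapping groups, above background on 3 wild-type arrays but only 1 mutant array. Esrra (-0.13, SE 0.14) and Rora (-0.16, SE 0.18) differed by less than their standard errors. Other Rora probe sets differed by -0.04 (SE 0.14) and, in the opposite direction, by 0.28 (SE 0.24).

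Genes known as targets of retinoic acid were lower in 22 and higher in 5 of 27 measured (median -0.13). Of the 27, 21 were above background on all arrays. An unadjusted p under 0.05 was reached by 3, all lower, and 1 of these was Hoxb1, the mutated gene. Without the arrays of high 18S signal the median was -0.045, and without wild-type replicate 2 it was -0.057. This list holds Hoxb1 itself, Rara and Rarb. It also shares genes with the metabolism, coregulator and other orphan receptor lists, so the list medians are not independent. Beside Hoxb1 the members of smallest p were the hindbrain Hox genes Hoxb3, at 153, 192 and 222 on wild-type arrays against 114, 128 and 88.6 on mutant arrays (-0.70, SE 0.18; limma adjusted p = 0.740), and Hoxa3, at 201 ± 25.7 and 148 ± 23.5 (-0.40, SE 0.16; limma adjusted p = 0.833). The second Hoxa3 probe set gave 179.7 ± 52.1 and 101 ± 15.0.

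**Figure D5:**
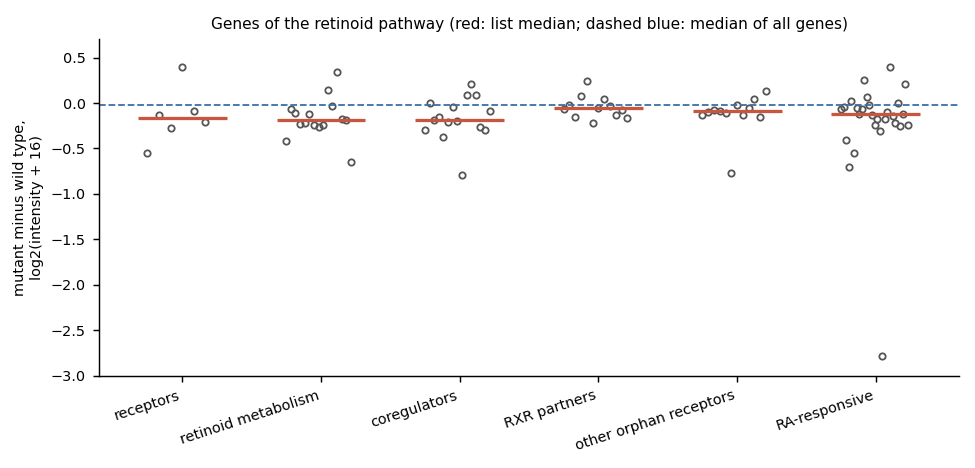
Difference in log2(intensity + 16), mutant minus wild type (vertical axis) for each gene of the receptor family and of 5 pathway lists, with 1 probe set per gene; red bars are list medians and the dashed blue line is the median of all 12393 genes, -0.02. All 6 medians, the receptors included, lie between -0.19 and -0.06, and some lists share genes. The median of the receptors turns to 0.0038 without the arrays of high 18S signal. That of the retinoid X receptor partners turns to 0.0019 without the dimmest 33.3% of probe sets. The low point in the last column is Hoxb1.

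By the pattern over the 6 arrays, the genes most like each receptor were found among 14228 probe sets above background, by Pearson correlation of log2 values. They were Atp6v0d1 and Ano10 for Rara (0.993 and 0.991) and Nek4 and Capn6 for Rarb (0.994 and 0.994). For Rarg probe set 1419415_a_at they were Arap1 and Rab43 (0.997 and 0.993). For Rxra probe set 1425762_a_at they were Cbl and Sae1 (0.993 and 0.992), for Rxrb Birc6 and Igf2bp3 (0.978 and 0.976), and for Rxrg, itself under background, Dnm2 and Pgam5 (0.990 and 0.989). With 6 arrays such values are common: between 57 and 302 probe sets exceeded 0.9 for each receptor. All points share the same 6 RNA samples and group structure, and no test is attached. The Rarg probe sets correlated with each other at only 0.275, so the Rarg neighbours are those of the named probe set.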

How the data were processed

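The deposited table holds 1 linear intensity per probe set and array. The processing tool affy is named, without version, per the submitters' processing notes; the sources used here do not say how probe sets were summarised or background was removed. A mean trimmed by 2% at each end was 500.0 on every array, and no further scaling was applied. The 64 control probe sets were left out of tests. Gene symbols are those of the platform annotation, looked up in RefSeq (GRCm38.p6) for 20351 of 20380 probe sets with 1 gene.

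The fit across all probe sets used limma 3.58.1 under R 4.3.3 (lmFit, eBayes, 2-sided) on log2(intensity + 16), adjusted by Benjamini-Hochberg over 22626 probe sets, at 0.05. The step was tested on simulated data. The number of arrays limits the precision (median SE 0.16), and differences of dim probe sets are understated. Named were all receptor probe sets, Hoxb1, the 3 genes of smallest p in each list, and 2 genes of like pattern per receptor; Cyp26a1 was added for its promoter, and other probe sets of named genes after their values were seen. The members and lists were chosen with earlier results of these data known. Alternatives covered scaling, filtering, variance model, pseudocount, array weights, a replicate block, each array left out and the 18S signal. Sample titles carry matching codes for same-numbered arrays, but no pairing is stated. Same-numbered arrays deviated together by correlations of 0.09, -0.01 and 0.12. Mutant replicates 1 and 3, but not 2, matched the wild-type array of their own number best. These values do not settle whether samples were paired, so the main fit has no pairing and the replicate block is an alternative.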

Additional observations from a re-analysis of the deposited data

How the results depend on the processing

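No receptor probe set passed the adjusted threshold under any of the 16 alternatives, and 0 did so in the fit with the replicate number as a block. The count at an unadjusted p under 0.05 was 1 of 8, against 5.76% of all probe sets. It became 3 of 7 without the dimmest 33.3% of probe sets (6.91% of all). With trend and robust settings it was 3 of 8 (6.24%), as it was with the replicate block (6.02%). It was 2 with log2(intensity + 64) (6.39%). It was 0 with array weights (9.25%), log2(intensity + 1) (5.47%) and the 18S covariate (4.01%). Leaving out 1 array gave 0 to 1, not always the same probe set (4.68% to 8.73%). Such counts are too small to read against these shares. Leaving out 1 array left 2 to 5 receptor probe sets without overlap, where fewer arrays make separation easier (19.3% to 29% of all probe sets). Differences that turned sign were those of Rara without the arrays of high 18S signal (0.017), of Rarb with the 18S covariate (0.042) and without mutant replicate 3 (0.021; -0.31 to 0.021 without 1 array), and of Rxrb with the covariate (0.109), without the arrays of high 18S signal (0.105) and without mutant replicate 2 (0.080; -0.18 to 0.080 without 1 array); the cause was not tested. The change of the Rarg gap ran from -0.21 without mutant replicate 1 to 0.22. The change of the Rxra gap ran from 0.54 to 1.03 without 1 array. Among targets of retinoic acid, Hoxb1 passed the adjusted threshold (1 gene) with array medians centred, without the dimmest 33.3%, with trend and robust settings and with array weights. Array centring moved the median of all probe sets from -0.02 to 0.03. Without the arrays of high 18S signal and with the 18S covariate, the median difference of the 6 receptor genes (-0.17) became 0.0038 and -0.0074, and that of retinoic acid targets (-0.13) -0.045 and -0.041. Leaving out 1 array gave medians of -0.29 to -0.13 for the receptor genes, -0.19 to -0.057 for retinoic acid targets, -0.21 to -0.073 for coregulators and -0.22 to -0.10 for retinoid metabolism. Over all settings the partners' median ran from -0.11 to 0.0019 and that of the other orphan receptors from -0.11 to -0.022. Over settings that kept at least 2 arrays per group, list counts at an unadjusted p under 0.05 were as follows. They ran from 0 to 3 for metabolism, 0 to 2 for coregulators and 0 to 1 for the other orphan receptors. For retinoic acid targets they ran from 2 to 5, and in each fit by probe set 1 of these was Hoxb1, the mutated gene. Over the same settings, gene means aside, 4.01% to 9.25% of all probe sets reached that limit. With 3 arrays per group, differences far above the median SE of 0.16 were not called either. Hoxb1, at -2.78 (SE 0.24), had a limma adjusted p of 0.0695 in the main fit, the smallest of all probe sets. The lack of a call for a receptor therefore does not show that it was unchanged.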
